A study of Mus musculus with 52 samples.

Results

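The expression of 10 lysosomal genes was followed across ribosome footprints, mRNA and ribosome density in mouse cells whose endoplasmic reticulum (ER) was put under folding stress. They are the proteases Ctsa, Ctsb, Ctsd, Ctsl and Ctsz, the acid ceramidase gene Asah1, the lipid-handling genes Psap and Npc2, and the lysosomal membrane genes Lamp1 and Lamp2. They were taken as a list of 10 symbols, all 10 of which were found among the 22417 genes of both deposited tables. The list is about one organelle and was not drawn up from a threshold on the values, although earlier results of these data were known when it was made.

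All samples were mouse embryonic fibroblasts of 1 genotype, written CReP+/-; GADD34+/+ (WT) in the labels, so the untreated cells carry the CReP+/- allele as well. Cells were left untreated, kept in thapsigargin (Tg, which blocks the calcium pump of the ER) for 0.5, 1, 2 or 4 h, or kept for 30 min in dithiothreitol (DTT, which reduces the disulfide bonds that folding proteins need), followed by no recovery or by 10 or 20 min of recovery. Each culture was separated into an ER fraction and a cytosol fraction. The labels name 52 samples in 26 groups of 2 replicates, 40 in the Tg series and 12 in the DTT series, and for the DTT samples the assay is missing from the labels. The tables hold 1 pooled value for each gene and group, so no difference below can be held against a spread between replicates, no test was possible and none is reported. Neither the scaling of the scores nor any correction for gene length is stated, so levels are compared within a gene and not between genes.

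A difference is given as log2 of the score plus 1, and a gene is counted when its log2 difference is over 1 in size, which is over 2-fold. The ER and cytosol footprint scores of a condition summed to between 1059492 and 1210459 over all genes. The share of that total found in the ER fraction was 41.6% in untreated cells of the Tg table and 31.7% after 0.5 h of Tg. In the DTT table, which is scaled separately, it was 38.1% in untreated cells and 26.4% after 30 min of DTT. These are bulk samples, in which fewer cells of a type and less RNA per cell cannot be told apart. The fibroblast label was checked against Vim, Sparc and Col1a1, with untreated ER footprint scores of 1192, 841 and 827, while the macrophage genes Ptprc, Csf1r, Itgam, Lyz1 and Lyz2 had no value in any footprint column of the Tg table. In that table Cd14, with an untreated ER score of 6.41, was the 1 of 7 macrophage markers with a footprint value. After 20 min of recovery from DTT, 2 macrophage markers had footprint values in both fractions, with ER shares of 10.1% and 50.6%. Of the 10 fibroblast markers, Thy1 and Pdgfrb had the lowest untreated ER scores, 18.1 and 20.8. Under Tg, 4 of 5 epithelial and 3 of 4 endothelial markers also had some footprint value. The highest untreated ER score among those was 3.35, for the epithelial marker Krt19.

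Lysosomal enzymes and membrane proteins are made at the ER. Their messenger RNAs are brought to the ER membrane by a signal sequence or transmembrane segment that emerges from the ribosome, and the finished proteins travel through the Golgi, where soluble enzymes receive a mannose 6-phosphate tag that steers them to the lysosome. When unfolded protein gathers in the ER, the kinase PERK lowers translation initiation and the IRE1 and ATF6 branches raise folding capacity. Comparing the ER with the cytosol fraction therefore shows where the messages of these proteins were being read at each time.

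In untreated cells the footprints of all 10 genes lay almost wholly in the ER fraction. The ER held between 95.3% (Npc2) and 99.1% (Asah1) of each gene's summed footprint score, with a median of 98.8%, against a median of 40.2% over all genes. The ER score of Ctsb, a cysteine protease, was 464 and its cytosol score 4.88. Lamp1, a heavily glycosylated protein of the lysosomal membrane, had 297 in the ER and 3.56 in the cytosol. Npc2, a soluble protein that binds cholesterol inside the lysosome and hands it to NPC1, had 354 in the ER and 17.3 in the cytosol, which gave it the lowest ER share of the 10. Ctsz, a carboxypeptidase, had 46.2 in the ER and 1.20 in the cytosol.

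The log2 difference of ER over cytosol footprints ran from 4.28 for Npc2 and 4.43 for Ctsz to 6.40 for Psap. All 10 passed 2-fold towards the ER, compared with 11.8% of the 10340 genes with both values. Their median was -0.46, and 1218 of them passed towards the ER and 1343 towards the cytosol, or 1455 and 136 once the median gene was set to 0. The mRNA could be compared for 3 of the 10, because Ctsa, Ctsb, Ctsd, Ctsl, Ctsz, Psap and Lamp2 have a blank for untreated cytosol mRNA. The meaning of a blank is unstated, and the lowest mRNA score listed in that column is 0.484. The ER over cytosol difference of mRNA was 4.22 for Asah1, 3.23 for Npc2 and 2.36 for Lamp1, each over 2-fold, as were 12.7% of all 3557 genes compared.

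Ribosome density, the deposited ratio of footprints to mRNA, was also higher in the ER for these 3 genes. Lamp1 had a density of 4.78 in the ER and 0.355 in the cytosol, and Asah1 had 0.762 and 0.141. Npc2 had 0.935 and 0.572, a log2 difference of 0.71 that is under 2-fold. Counted over 2-fold, 2 of 3 members were higher, against 5.35% of all 3330 genes. Centred on the median gene it was 3 of 3, against 10.4% of all genes. With the ratio of the deposited scores in place of the deposited density it was also 3 of 3.

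Many lysosomal genes of mammals carry copies of an E-box-like element near their start, known as a CLEAR element, which is read by the transcription factor TFEB. The 250 bases before each RefSeq start (GRCm38.p6) were therefore searched for the palindrome CACGTG, which reads the same on both strands, and for GTCACGTG on both strands, every match of which contains the first motif. A window was found for 8 of the 10 genes, with Ctsa and Psap having 2 starts each, and Ctsb and Asah1 without an entry. Lamp1, Ctsd, Ctsa and Ctsl held CACGTG, which is 4 of 8 genes with 10 windows between them, and the first window of Ctsa held none. Of all 32851 windows of that length 6.02% held it, a share of windows and not of genes. The longer motif was in 3 of those 4 genes against 1.85% of windows. Lamp1 had 4 copies within the 61 bases before its start. Windows of Ctsz, Psap, Npc2 and Lamp2 held no copy of these letters. The stretches that hold the motif are shown because they are the sequence feature some of the genes share, with the motif in capitals and 5′ to 3′ on the strand of the gene. The match is a description, and no factor was measured here.
Lamp1 (chr8:13159080-13159160, plus strand): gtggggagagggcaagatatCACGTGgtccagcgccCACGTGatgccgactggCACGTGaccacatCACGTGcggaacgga
Ctsd (chr7:142387900-142388077, minus strand): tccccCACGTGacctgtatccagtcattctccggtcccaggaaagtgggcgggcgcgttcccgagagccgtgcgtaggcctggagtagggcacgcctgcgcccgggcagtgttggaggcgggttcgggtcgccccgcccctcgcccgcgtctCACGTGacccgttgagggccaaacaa
Ctsa, second start (chr2:164833741-164833772, plus strand): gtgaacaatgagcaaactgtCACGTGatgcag
Ctsl (chr13:64370731-64370770, minus strand): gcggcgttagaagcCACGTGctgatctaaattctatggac

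At 0.5 h of Tg the ER score of every one of the 10 genes was lower and the cytosol score higher than in untreated cells. Among the cysteine proteases, the ER footprint scores of Ctsb were 464 in untreated cells and 129, 267, 275 and 331 after 0.5, 1, 2 and 4 h of Tg, while its cytosol scores were 4.88, then 138, 25.9, 15.4 and 6.16. For Ctsl the ER scores were 511, then 153, 288, 305 and 457, and the cytosol scores were 5.85, then 148, 38.4, 20.5 and 9.48. Both genes thus had near-equal scores in the fractions at 0.5 h, and at 4 h the cytosol score was still above its untreated value, by less than 2-fold. Ctsz had ER scores of 46.2, 23.1, 46.2, 29.3 and 32.7, and cytosol scores of 1.20, 23.5, 6.64, 1.56 and 0.740 over the same 5 conditions.

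In the other hydrolases, too, the ER score was lowest and the cytosol score highest at 0.5 h. Ctsd, the aspartic protease of the lysosome, had ER scores of 357, 127, 203, 208 and 243, and cytosol scores of 4.43, 91.1, 23.6, 13.7 and 4.85. Ctsa, a serine carboxypeptidase that also protects beta-galactosidase and neuraminidase, had ER scores of 120, 40.7, 67, 61 and 71.3, and cytosol scores of 2.09, 43.3, 14, 6.55 and 1.75. Asah1, which splits ceramide, had ER scores of 176, 33, 49.6, 90.3 and 134, and cytosol scores of 1.61, 42.8, 17.5, 10.6 and 3.28. Asah1 had the lowest ER score relative to its untreated value at 0.5 and at 1 h among the 10, with log2 differences of -2.38 and -1.81.

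Psap encodes the precursor of the saposins, small proteins that help hydrolases act on sphingolipids. Its ER scores were 529, 212, 398, 305 and 379, and its cytosol scores 5.28, 171, 35.6, 17 and 5.62. Npc2 differed in its course: its ER scores were 354, 79.6, 176, 208 and 276, but its cytosol scores were 17.3, 124, 151, 101 and 71.6. The cytosol score of Npc2 was highest at 1 h, whereas that of each of the other 9 was highest at 0.5 h, and at 4 h it was still well above its untreated score.

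Relative to untreated cells, both membrane genes were among the lower ones in the ER at 0.5 h, with log2 differences of -2.15 for Lamp1 and -2.19 for Lamp2. Lamp1 had ER scores of 297, 66.1, 109, 154 and 196, and cytosol scores of 3.56, 58.9, 14.5, 9.95 and 4.52. Lamp2, whose splice forms take part in lysosomal uptake of proteins, had ER scores of 228, 49.3, 88.3, 147 and 200, and cytosol scores of 2.51, 94.0, 21.4, 16.3 and 4.54. At 0.5 h the cytosol score of Lamp2 was above its ER score, as it also was for Ctsa, Ctsb, Ctsz, Npc2 and Asah1, while Ctsd, Ctsl, Psap and Lamp1 had the higher score in the ER.

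**Figure D1:**
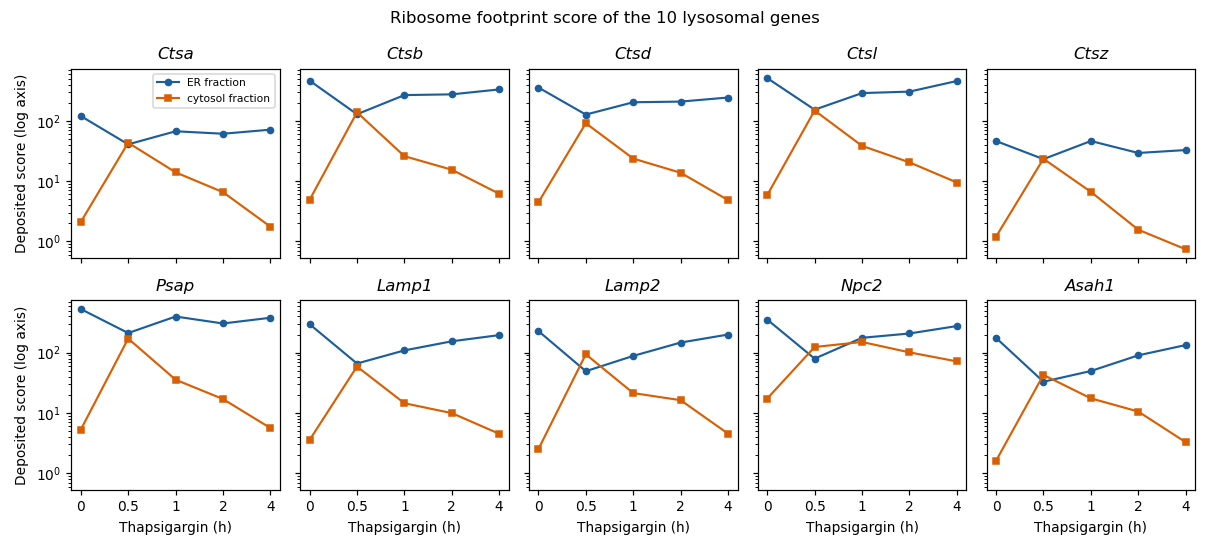
Deposited ribosome footprint scores (vertical log axis, scale not stated by the authors) of the 10 genes by time in thapsigargin (horizontal axis, h, evenly spaced categories), with blue circles for the ER fraction and orange squares for the cytosol fraction; each point is 1 pooled value. In every panel the lines come together or cross at 0.5 h, and only in the Npc2 panel does the cytosol line stay high, at 71.6 after 4 h.

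Counted over 2-fold, 9 of 10 genes were lower in the ER after 0.5 h of Tg, as were 14.2% of all 11886 genes, and Ctsz missed it at -0.97. At 1 h the count was 4 of 10 (Asah1, Lamp1, Lamp2 and Npc2, the last just past the line), against 6.32% of all genes. No member was over 2-fold lower in the ER at 2 h or at 4 h, where 4.63% and 2.37% of all genes were. In the cytosol all 10 were over 2-fold higher at 0.5 h and again at 1 h, against 17.6% and 14% of all genes. At 2 h it was 9 of 10 against 11.2%, with Ctsz at 0.22. By 4 h 1 of 10 was left, Npc2 at 1.99, against 4.92% of all genes.

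The ER shift subtracts the cytosol log2 difference from the ER log2 difference and so puts both into 1 value. At 0.5 h it ran from -4.44 for Ctsz to -6.95 for Lamp2, with a median of -5.98 over the 10 genes and -0.41 over all genes. All 10 were over 2-fold lower, as were 20.9% of the 9631 genes compared. Of all genes 83 had a higher value and 2010 a lower one, which became 373 and 1291 when the median gene was set to 0. The members' shift grew smaller with time, with a median of -3.15 at 1 h, -2.28 at 2 h and -0.77 at 4 h. At 1 h all 10 were lower against 13.9% of all genes (352 genes higher and 1369 lower, or 578 and 1138 centred), and at 2 h 9 of 10 against 10.2%.

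Npc2 and Asah1 were the genes still over 2-fold lower at 4 h, 2 of 10 against 3.71% of all genes, and Lamp2 joined them, at -1.02, with a pseudocount of 0.1. The shift of Npc2 was -4.91, -4.05, -3.24 and -2.34 at the 4 times. That of Asah1 was -6.45, -4.63, -3.10 and -1.11. With 1 added to the scores, Npc2 thus had the second smallest shift of the 10 at 0.5 h, after Ctsz, and the largest at 4 h. The order of Npc2 and Ctsz at 0.5 h depended on the pseudocount. At 4 h the median of all genes was 0.17, with 215 higher and 376 lower, and centring on it gave 107 higher and 498 lower over all genes and 4 of 10 among the members.

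**Figure D2:**
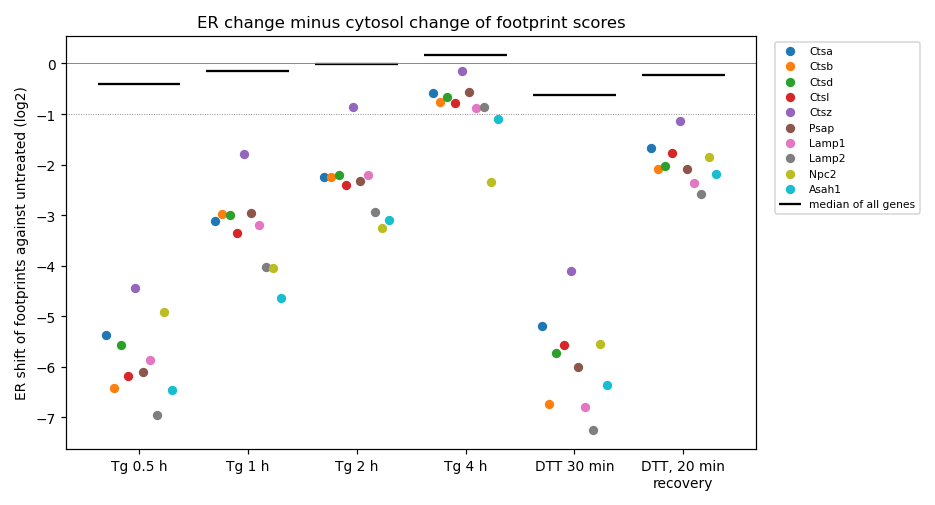
ER shift of footprints against untreated cells (vertical axis, log2, ER change minus cytosol change) for the 10 genes as coloured points, at 4 times of Tg, after 30 min of DTT and after 20 min of recovery, with the median of all genes as a black bar and the 2-fold line dotted. All points lie under the black bars, and at 4 h of Tg Npc2 stands apart at -2.34. The Tg and DTT comparisons share their untreated cells.

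Expressed as the share of a gene's summed footprints in the ER, the 10 genes went from a median of 98.8% in untreated cells to 49.1%, 87.8%, 93.8% and 97.8% after 0.5, 1, 2 and 4 h of Tg. At 0.5 h the shares lay between 34.4% for Lamp2 and 58.2% for Ctsd. Lamp1, at 52.9%, lay among the soluble proteins. The share of Npc2 was 39.1% at 0.5 h, then 54.0%, 67.3% and 79.4%. At 4 h the other 9 genes had returned to between 97.6% and 98.5%, and Npc2 lay under all of them. Its untreated share of 95.3% was also the lowest, with Ctsz next at 97.5%. The shares take the authors' scaling of the fractions as it stands.

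**Figure D3:**
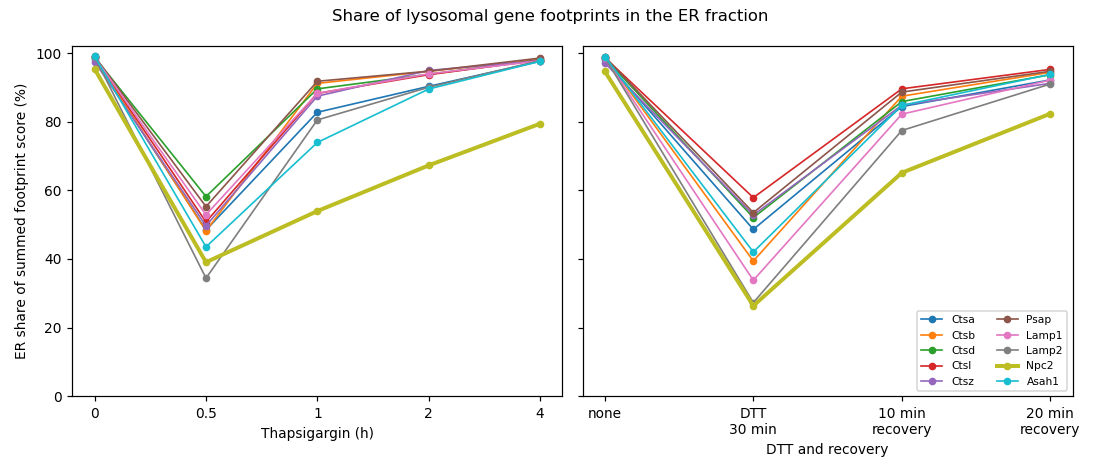
Share of each gene's summed footprint score found in the ER fraction (vertical axis, %) by time in thapsigargin (left, h) and after DTT and recovery (right); each line is 1 of the 10 genes and each point comes from 1 pooled ER and 1 pooled cytosol value. The lines drop together at 0.5 h and at 30 min of DTT, and the thick line of Npc2 reaches 79.4% at 4 h of Tg and 82.3% after 20 min of recovery, the lowest of the 10 in both.

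Adding the fractions shows how far the footprint score of a gene changed relative to other genes, apart from its place. Over all genes the sum was 1074395 in untreated cells and 1134418 at 0.5 h of Tg. As the scaling is unstated, a change shared by all genes cannot be read from these sums. They also take the authors' scaling of the fractions as it stands. At 0.5 h the summed score of Lamp1 went from 301 to 125, a log2 difference of -1.26, and that of Asah1 from 178 to 75.8, a difference of -1.22. These 2 of 10 were over 2-fold lower, against 1.87% of all genes, and the 10 genes had a median of -0.75 against 0.03 over all genes. Ctsz, at -0.02, was the least changed. At 1 h Asah1, Lamp1 and Lamp2 were over 2-fold lower, 3 of 10 against 3.31% of all genes, with differences of -1.39, -1.28 and -1.07. No member was over 2-fold lower at 2 h, against 2.82%, or at 4 h, against 2.29%, when the median of the 10 was -0.47 and that of all genes 0.06. At 4 h the members ran from -0.73 for Ctsa to -0.09 for Npc2.

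Untreated and treated mRNA could be compared in both fractions for Npc2, Asah1 and Lamp1, and each had its lowest ER score and its highest cytosol score at 0.5 h. The ER mRNA scores of Npc2 were 366 in untreated cells and 128, 308, 259 and 378 after 0.5, 1, 2 and 4 h of Tg, and its cytosol scores 38.2, 247, 170, 235 and 223. Asah1 had ER mRNA scores of 241, 100, 171, 194 and 282, and cytosol scores of 12, 134, 65.6, 47.1 and 39.7. Lamp1 had ER mRNA scores of 63.7, 19, 38.8, 46.3 and 73.6, and cytosol scores of 11.6, 43.6, 28, 20.8 and 14.9. At 4 h the ER score of each of the 3 was above its untreated score, while the cytosol score of Npc2 was still far above its untreated one.

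The mRNA ER shift at 0.5 h was -4.63 for Asah1, -4.17 for Npc2 and -3.52 for Lamp1, 3 of 3 over 2-fold lower, as were 31.9% of all 2905 genes. The median of all genes was -0.69, with 29 higher and 926 lower, or 193 and 301 after centring. All 3 were lower at 1 h against 11.3% of all genes and at 2 h against 8.76%. At 4 h it was 2 of 3 against 4.95%, with Npc2 at -2.47, Asah1 at -1.42 and Lamp1 at -0.13. The ER share of Npc2 mRNA was 90.5% in untreated cells, then 34.1%, 64.4%, 52.5% and 62.9%. At 4 h most of its mRNA and of its footprints lay in the ER fraction. For both, the part in the cytosol was larger than in untreated cells. For Lamp1 the share was back at 83.2% from 84.6%, and for Asah1 at 87.7% from 95.2%.

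Of the 9 genes with ER mRNA values at 0.5 h, 7 were over 2-fold lower there, against 12.4% of all 4092 genes, and Ctsz and Lamp2 were at -0.60 and -0.58. Ctsl and Ctsd, without an untreated cytosol value, could still be followed under Tg. The ER share of Ctsl mRNA was 45.9%, 76.5%, 88.2% and 92.1% at the 4 times, and that of Ctsd was 37.5%, 86.4%, 88.2% and 89.5%. In sum over the fractions, mRNA scores at 4 h differed from untreated by 0.57 for Npc2, 0.35 for Asah1 and 0.23 for Lamp1 on the log2 scale, none of which is over 2-fold.

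**Figure D4:**
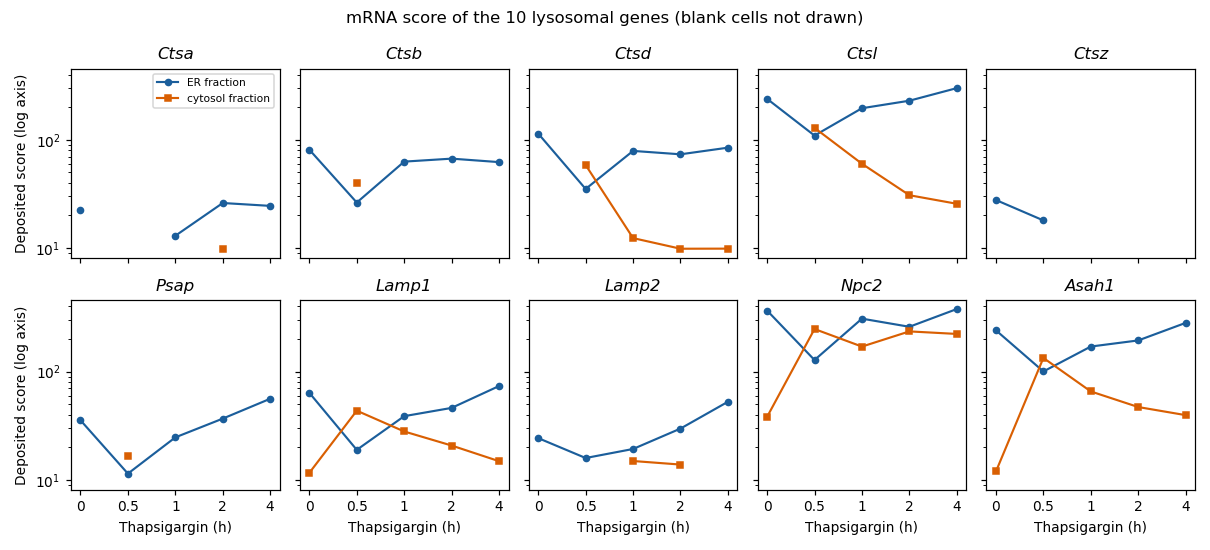
Deposited mRNA scores (vertical log axis, scale not stated by the authors) of the 10 genes by time in thapsigargin (horizontal axis, h, evenly spaced categories) in the ER (blue circles) and the cytosol (orange squares), with blank cells left undrawn. Npc2 keeps a cytosol score of 223 at 4 h, while the cytosol scores of Ctsl, Ctsd, Lamp1 and Asah1 come down after 0.5 h.

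Ribosome density in the ER differed by less than 2-fold for most of the genes. At 0.5 h it was over 2-fold lower for 2 of 9, Lamp2 and Asah1, and for 11.2% of all 3855 genes. The ER density of Lamp2 was 9.23 in untreated cells and 3.40, 5.51, 5.58 and 3.79 over the 4 times of Tg. That of Asah1 was 0.762, then 0.331, 0.290, 0.484 and 0.476. Psap, with 15 in untreated cells, had 19.7 at 0.5 h and 7.10 at 4 h. In the cytosol, density could be compared for 3 genes. Lamp1 had a cytosol density of 0.355, then 1.18, 0.528, 0.535 and 0.303, and Asah1 had 0.141, then 0.308, 0.262, 0.233 and 0.0828. Npc2 had 0.572, 0.470, 0.936, 0.465 and 0.332, so its cytosol density was the highest at 1 h, when its cytosol footprints were highest too. The deposited density at that time was higher than the ratio of the deposited scores in the ER by a factor of 1.90 for Npc2 and 1.80 for Ctsb.

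DTT, measured against the same untreated cells, gave shifts of the same sign. Npc2 had ER footprint scores of 323 in untreated cells, 172 after 30 min of DTT, and 528 and 696 after 10 and 20 min of recovery, with cytosol scores of 18.3, 480, 283 and 149. Lamp2 had ER scores of 209, 66.9, 186 and 196, and cytosol scores of 2.65, 178, 54.3 and 19.4. Asah1 had ER scores of 161, 24.4, 75.8 and 96.7, and cytosol scores of 1.70, 33.6, 13.6 and 6.39. Npc2 was thus above its untreated score in both fractions during recovery, Lamp2 came back near its untreated score in the ER, and Asah1 stayed under it there.

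The protease Ctsl had ER scores of 467, 161, 369 and 419, and cytosol scores of 6.17, 117, 42.9 and 20.9. Psap had ER scores of 483, 242, 498 and 530, and cytosol scores of 5.57, 211, 63.9 and 29.7. Lamp1 had ER scores of 271, 58.1, 168 and 176, and cytosol scores of 3.76, 114, 36.3 and 15.1. Each of the 10 genes had its highest cytosol score at the end of DTT and a lower one at each step of recovery.

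After 30 min of DTT 7 of 10 genes were over 2-fold lower in the ER, against 18.5% of all 9166 genes, with Psap at -0.99, Npc2 at -0.91 and Ctsa at -0.79. All 10 were over 2-fold higher in the cytosol, against 30.3% of all genes. The ER shift ran from -4.10 for Ctsz to -7.25 for Lamp2 with a median of -5.86, and all 10 were over 2-fold lower, as were 32% of all 8378 genes. The median of all genes was -0.63, with 108 higher and 2685 lower, or 640 and 1461 after centring. Side by side, the shifts of Lamp2 were -6.95 after 0.5 h of Tg and -7.25 after DTT, those of Ctsz -4.44 and -4.10, and those of Lamp1 -5.87 and -6.79. The ER share of the 10 genes had a median of 45.3% after DTT, with Npc2 at 26.4% and Lamp2 at 27.3% the lowest and Ctsl at 57.9% the highest.

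Within minutes of recovery most of the footprints were again in the ER fraction. After 10 min, the ER score was over 2-fold higher than at the end of DTT for 9 of 10 genes, against 10.1% of all genes, and Ctsa was at 0.79. Of the 10, 8 were over 2-fold lower in the cytosol, against 12.8%, with Ctsz at -0.77 and Npc2 at -0.76. The ER shift from the end of DTT was over 2-fold upwards for 10 of 10 against 20.4%, with a median of 2.68. The median ER share was then 84.8%, and Npc2 had the lowest share, 65.1%.

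After 20 min, 9 of 10 were over 2-fold higher in the ER against 17.2% of all genes, and 10 of 10 over 2-fold lower in the cytosol against 20.3%. The shift from the end of DTT was over 2-fold upwards for 10 of 10 against 29.5%, with a median of 3.86 against 0.53 for all genes. Of all genes 2608 were higher and 179 lower, or 1591 and 737 after centring. Set against untreated cells, the return was not complete. All 10 were still over 2-fold higher in the cytosol, against 12.9% of all genes, and 10 of 10 had a shift over 2-fold lower, against 10.7%, with a median of -2.05 and Ctsz at -1.14 nearest to the line. After centring on the median gene the shift count was 9 of 10, against 7.09% of all genes. The ER shares then lay between 91.0% for Lamp2 and 95.2% for Ctsl, apart from Npc2 at 82.3%.

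The summed footprints set Npc2 and Asah1 apart in opposite directions under DTT. The sum for Npc2 went from 342 in untreated cells to 651 at the end of DTT, 810 after 10 min and 845 after 20 min of recovery, and that of Asah1 from 162 to 58.0, 89.5 and 103. Asah1, at -1.47, was the 1 gene of 10 over 2-fold lower at the end of DTT, against 2.86% of all genes. Npc2, at 1.30 after 20 min, was the 1 of 10 over 2-fold higher than in untreated cells, against 6.19% of all genes. For the other 8 genes the difference after 20 min lay between -0.52 for Lamp1 and 0.26 for Ctsz.

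The summed mRNA of Npc2 was higher under DTT as well, although its ER score at the end of DTT was not. Its ER mRNA scores were 335, 310, 352 and 534, and its cytosol scores 40.4, 710, 558 and 484, over the 4 conditions of the DTT table. The sum went from 375 to 1021, a log2 difference of 1.44 at the end of DTT and again 1.44 after 20 min of recovery. For Lamp1 the same differences were 0.26 and 0.12, and for Asah1 0.20 and -0.27. The other 7 members have a blank for untreated cytosol mRNA, so their sums could not be compared. Among them Lamp2 had an ER mRNA score of 22.2 in untreated cells and 33.7 at the end of DTT. Each of the other members, Npc2 included, had a lower ER mRNA score at the end of DTT than in untreated cells. After 4 h of Tg the summed Npc2 mRNA differed from untreated by 0.57 and its summed footprints by -0.09.

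The ER shift of mRNA after DTT was -5.12 for Asah1, -4.21 for Npc2 and -3.53 for Lamp1, 3 of 3 over 2-fold lower against 36.2% of all 2483 genes. The median of all genes was -0.76, with 19 higher and 899 lower, or 195 and 249 after centring. In the ER alone 4 of 10 were over 2-fold lower, against 12.3% of all genes, namely Asah1, Lamp1, Ctsb and Ctsd, of which 1 remained after centring on the median gene. By 20 min of recovery 6 of 9 genes had an mRNA shift over 2-fold upwards from the end of DTT, against 16.5%. Those 6 were Ctsd, Ctsl, Psap, Lamp1, Npc2 and Asah1, and Ctsa, Ctsb and Lamp2 were at 0.29, 0.41 and 0.15. Against untreated cells the 3 measured genes were still over 2-fold lower, 3 of 3 against 22.9%, with Asah1 at -3.56, Npc2 at -2.88 and Lamp1 at -1.48.

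At 20 min the footprints lay nearer to the ER than the mRNA did. The ER share of Asah1 was 93.8% for footprints and 57.9% for mRNA, that of Lamp1 92.1% and 61.8%, that of Ctsb 94.4% and 50.7%, and that of Npc2 82.3% and 52.5%. The order was the same in untreated cells, at 99.0% and 94.6% for Asah1, 98.6% and 82.6% for Lamp1, and 94.6% and 89.2% for Npc2. Over all genes the medians at 20 min were 34.7% for footprints and 43.1% for mRNA, from unlike sets of genes. Density in the cytosol is the ratio of the same cytosol footprints to mRNA, so it is no separate support for this order. At 20 min cytosol density was over 2-fold lower than at the end of DTT for 9 of 9 genes, against 20.5% of all genes. The differences ran from -1.01 for Npc2 to -3.80 for Ctsb. Centred on the median gene it was 6 of 9, against 15.6% of all genes. The cytosol density of Ctsb was 5.57 at the end of DTT, then 1.73 and 0.400. In the ER 3 of 10 genes had a density over 2-fold lower at the end of DTT, against 20.9% of all genes, with Lamp2 at -2.22, Asah1 at -1.40 and Ctsl at -1.01.

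The remaining proteins of the lysosome were compared to see how far the 10 genes are like their neighbours. Of 47 other soluble lysosomal proteins 27 had values, and 27 of 27 had an ER shift over 2-fold lower at 0.5 h of Tg, with a median of -3.68 and, among the lowest, Lgmn (the protease legumain, -5.52) and Lipa (acid lipase, -5.07). Of 22 other membrane proteins 6 had values and 6 were lower, with a median of -4.02 and the tetraspanin gene Cd63 at -5.67. The membrane part and accessory subunits of the V-ATPase, the pump that acidifies the lysosome, had 8 of 9 lower with a median of -3.03, among them Atp6ap1 at -5.33. Its cytosolic V1 part had 1 of 8 lower, Atp6v1c1 at -1.04, with a median of -0.45. Of 16 cytosolic proteins that work at the lysosome 1 was lower, Rragc at -1.10, and their median was -0.04. These counts stand against 20.9% of all genes over 2-fold lower at 0.5 h. Within the same organelle, and within the same pump, the groups made at the ER thus had medians far under that of all genes, -0.41, while V1 lay close to it and the cytosolic proteins above it.

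Genes with other ER-made products had shifts in the same range. The ER shift at 0.5 h had a median of -5.51 for 14 ER chaperones and folding enzymes, all 14 over 2-fold lower, and of -5.10 for 12 plasma membrane receptors and integrins, all 12 lower, against 20.9% of all genes. At 4 h of Tg 6 of 27 other soluble lysosomal proteins were still over 2-fold lower, against 3.71% of all genes, and the 27 had a median of -0.58. Among the 6 were Dpp7, a dipeptidase, at -1.86 and Scpep1, a carboxypeptidase-like gene, at -1.21. The mannose 6-phosphate receptor gene M6pr was at -1.68 and the V-ATPase gene Atp6v0c at -1.62, so Npc2, at -2.34, was not alone in a late shift. After DTT the median shift was -4.24 for 26 other soluble proteins, -5.02 for 5 other membrane proteins, -0.43 for the V1 subunits and -0.30 for 14 cytosolic proteins. In untreated cells the median ER share of footprints was 96.7% for the other soluble and 35.1% for the V1 genes. The members of these lists that lack values in some columns were left out of those counts.

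**Figure D5:**
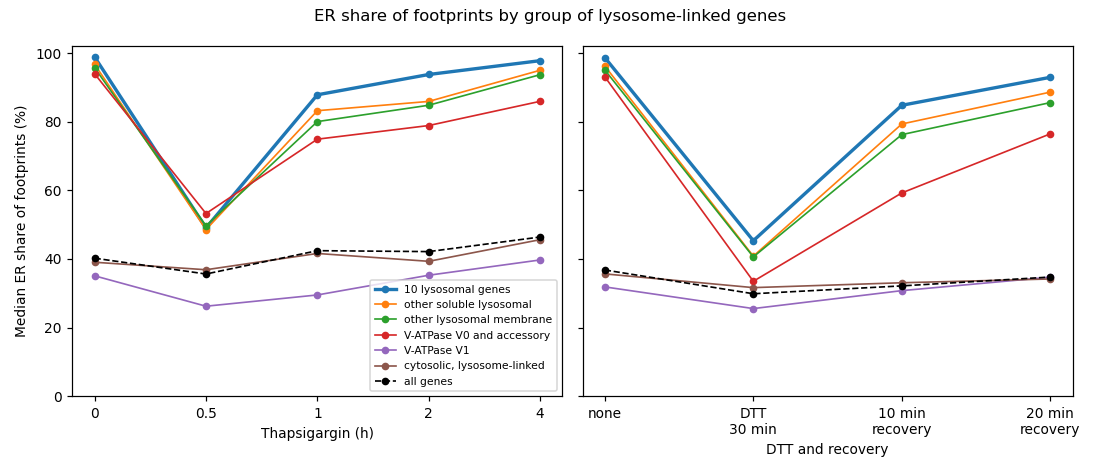
Median ER share of footprints (vertical axis, %) by time in thapsigargin (left, h) and after DTT and recovery (right) for the 10 genes (thick line), for other groups of lysosome-linked genes and for all genes (dashed). The groups made at the ER come down towards the others at 0.5 h, where the 10 genes are at 49.1% and all genes at 35.6%, and rise again, while the V1 and cytosolic groups lie near or under the line of all genes.

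Across the 10 Tg footprint columns, the genes whose centred log2 profile was closest to the median profile of the 10 were Tmem59, Serpinh1, Tm9sf2, Spp1 and P4ha1. Their root mean square distances were 0.144, 0.180, 0.182, 0.189 and 0.197, compared with a median of 2.31 over 9323 genes. Among the 10, Ctsl was the closest at 0.117 and Npc2 the farthest at 1.31, followed by Ctsz at 0.501. The columns share their libraries and the untreated state, so the distance is a description of likeness only.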

How the data were processed

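Ribosome footprints and mRNA of ER and cytosol fractions were sequenced. Per the submitters' processing notes reads were aligned with Bowtie (no version), with the build not given in the sources used here. Per the file headers the deposited footprint and mRNA columns hold a score of unstated scaling, and the deposited density columns hold a ratio of footprints to mRNA. One more column, deposited without a header (unit other), says TRUE or FALSE, and 10 of 10 members are TRUE. The authors pooled the replicates into 1 value per gene and group, so the planned tests could not be run. The depth is unknown and no interval can be given. Blanks are unexplained.

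The untreated columns of the DTT table are those of the Tg table times 0.913 (ER) and 1.06 (cytosol), so both series share their controls, and an ER to cytosol ratio has no absolute zero.

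Differences are log2(score + 1), and for density the log2 ratio, over genes with a value in each column compared. The members, gene lists and comparisons were chosen with earlier results of these data known. All 10 members are named. Of other lists up to 3 genes over 2-fold with the largest difference are named, or the 2 with the highest level. Some genes that meet this rule are not reported here, and the cell type markers in the text were picked with their values in view. Further genes named, Dpp7, Scpep1, M6pr and Atp6v0c among them, meet that rule at 4 h. The 5 nearest profiles are named by root mean square distance. The shift calculation was tested on simulated data with a pseudocount far smaller than the 1 added here. The effect of adding 1 to low scores was therefore not tested by it. Promoter letters are from RefSeq. Alternatives were a pseudocount of 0.1, a value in every column, blanks as 0, genes above the median level, centring on the median gene, a log2 threshold of 1.5 and, chosen after seeing the data, the ratio of the scores for density. Python 3.11.15, pandas 2.3.3, NumPy 2.4.6 and Matplotlib 3.10.9 were used.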

Additional observations from a re-analysis of the deposited data

How the results depend on the processing

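No paired analysis was possible because each group is given as 1 pooled value, and leaving out replicates was not run for the same reason. Counts of members over 2-fold were recomputed for 44 comparisons, 225 of 260 recomputed counts stayed within 1.5 times, and no single value over 2-fold changed its sign. With a pseudocount of 0.1 the shift counts at 2 and 4 h of Tg became 10 (Ctsz added) and 3 (Lamp2 added), and the other 38 counts were equal. With the stricter log2 threshold of 1.5, the Tg counts became 1 (ER, 1 h), 5 (cytosol, 2 h), 1 (shift, 4 h), 0 and 0 (sum, 0.5 and 1 h), 1 (mRNA shift, 4 h) and 0 (ER density, 0.5 h). The DTT counts became 0 (sum), 0 (mRNA in the ER) and 1 (ER density) at the end of DTT, 4 and 5 (ER and cytosol, 10 min), 5 (ER, 20 min), 0 (sum, 20 min) and 3 (mRNA shift, 20 min from DTT). Taking blanks as 0 brought in members without cytosol mRNA: 10 higher in untreated ER mRNA, mRNA shifts of 8, 7, 8 and 5 lower over the 4 times of Tg, and 10 and 9 lower at the end of DTT and after 20 min. Centring gave 4 (shift, 4 h of Tg) and 1 (ER mRNA, DTT), and 32 of 44 counts were equal. The rest changed by less than 1.5 times. Among those, the centred counts were 5 (ER mRNA, 0.5 h of Tg), 7 and 7 (ER, 10 and 20 min from DTT), 9 (shift, 20 min against untreated) and 6 (cytosol density, 20 min). Requiring levels above the median gene left fewer members with a value: 5 of 5 (cytosol, 1 h), 2 of 2 (cytosol, 2 h), 4 of 4 (cytosol, 20 min), 1 of 1 (untreated density) and 1 of 7 (ER density, 0.5 h). Requiring a value in every column left 3 members for mRNA and density: 3 lower (ER mRNA, 0.5 h), 1 (ER density, 0.5 h), 2 (ER mRNA, DTT), 1 (ER density, DTT), 3 (mRNA shift, 20 min) and 3 (cytosol density, 20 min). Over all genes, centring moved the share of higher among genes over 2-fold by over 10 points in 30 of 44 comparisons, by between -36.4 and 46.5 points. No spread between replicates and no depth is known.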
